A study of Mus musculus with 6 samples.

Results

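The serpins are a family of protease inhibitors, and 80 of the 45281 probes on the array carried a target name that began with SERPIN. These probes stood for 59 target names and, after names were paired with RefSeq, for 58 of the 28711 gene names on the array, because the target SERPINB6 is an older name of Serpinb6a. Of the 58 genes, 18 had more than 1 probe. The rule goes by target name, though it was set with earlier results of these data known. The arrays held RNA of cancer-associated fibroblasts from a pancreatic carcinoma of a KPC-Brca1 mouse, a genetic model of pancreatic cancer, kept for a short time as an explant culture. All plates shared that origin, and 3 plates stayed untreated while 3 received 2 micromolar DAC for 48 hours. DAC (decitabine, 5-aza-dC) is a cytidine analogue that traps DNA methyltransferases on DNA. The labels name the samples as replicate plates of a culture from a tumour, so p-values measure the spread between plates, which may be technical.

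Most serpins act as suicide inhibitors. A loop at the surface of the protein serves as bait, the protease cuts it, and the serpin then changes shape and holds the protease in a covalent complex. The letter in a serpin's name gives its clade. Clade A holds mostly secreted plasma proteins such as alpha-1-antitrypsin and antichymotrypsin, and both have multiplied into gene clusters in the mouse. Clade B serpins stay mainly inside the cell, where several protect it from granule and lysosomal proteases. A few members inhibit nothing and work as chaperones, hormone carriers or signalling proteins.

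Most serpin probes lay at background. A probe was taken as detected at a detection p under 0.01, the p-value that the authors' table gives for each probe against negative control probes of the same array. By this measure 11 of the 58 genes were detected on all 3 untreated arrays and 12 on all 3 DAC arrays, while 45 were detected on no array. The counts in untreated cells were 2 of 23 genes in clade A, 4 of 25 in clade B, 1 of 2 in clade E, 1 of 2 in clade F, 1 of 2 in clade I and the lone members of clades G and H. With DAC the count in clade B was 5, and those of the other clades were the same. Antithrombin (Serpinc1) and heparin cofactor II (Serpind1), the clade C and D inhibitors of thrombin made by liver, were detected on no array. At a stricter detection p under 0.001 the counts were 7 untreated and 10 with DAC.

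**Figure D1:**
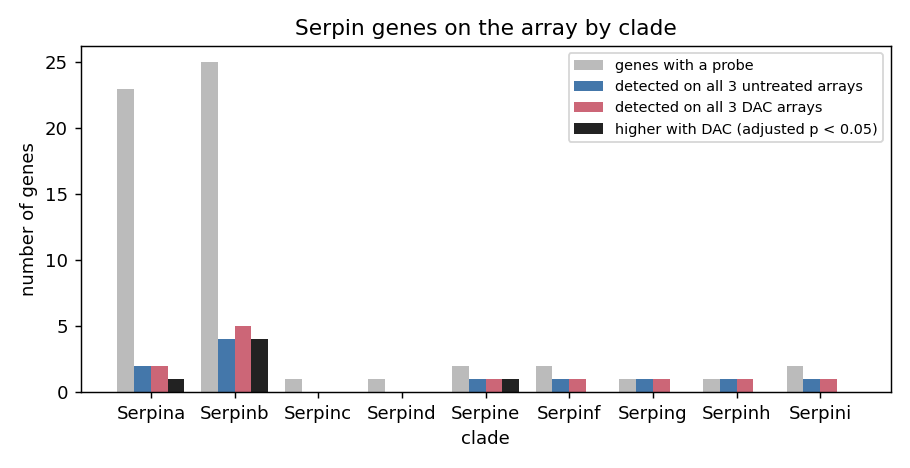
Number of serpin genes per clade (vertical axis, genes) that had a probe, were detected on all 3 untreated arrays, were detected on all 3 DAC arrays, and were higher with DAC at an adjusted p under 0.05. Clade B, with 25 genes on the array, holds 4 of the 6 genes that were higher.

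The undetected genes of clade A were the alpha-1-antitrypsin genes Serpina1a to Serpina1f, Serpina3a, Serpina3b, Serpina3c, Serpina3f, Serpina3h, Serpina3k, Serpina3m, Serpina4-ps1, Serpina5, Serpina6 (the corticosteroid carrier), Serpina7 (the thyroxine carrier), Serpina9, Serpina10, Serpina11 and Serpina12. In clade B they were Serpinb1b, Serpinb1c under its serpin name, Serpinb2, Serpinb3a to Serpinb3d, Serpinb5, Serpinb7, Serpinb8, Serpinb9, Serpinb9b to Serpinb9e, and Serpinb10 to Serpinb13. Serpinf2 (alpha-2-antiplasmin) and Serpini2 were also among the undetected genes. The 63 serpin probes that did not pass the filter had raw intensities of 27.5 to 62.6, and the lowest intensity detected on an array was 50.9 to 58.3. Absence of a transcript cannot be read from such a probe.

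Of the 12 serpin genes tested, 6 were higher with DAC and none was lower (limma, Benjamini-Hochberg adjusted p under 0.05). At an unadjusted p under 0.05, 1 was lower, Serpini1. Genes were tested where a probe was detected on at least 3 of the 6 arrays, and the brightest such probe stood for the gene. Among all 11518 genes tested, 14.8% were higher and 14.6% lower by the same rule. The median log2 change was 0.29 over the 12 serpin genes and 0.003 over all genes tested. Serpinb9g passed the filter only through its DAC arrays, where it was high, and when detection on each of the 6 arrays was required, 5 serpin genes were higher and none was lower. Without between-array normalization, which moved the median of all genes to −0.11, the split was 3 higher and 1 lower. Without DAC replicate 3 it was 3 higher and none lower, partly because Serpinb9g then had too few detected arrays to be tested. Values of the 2 groups did not overlap for 9 of the 12 genes, against 42.8% of all genes tested.

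**Figure D2:**
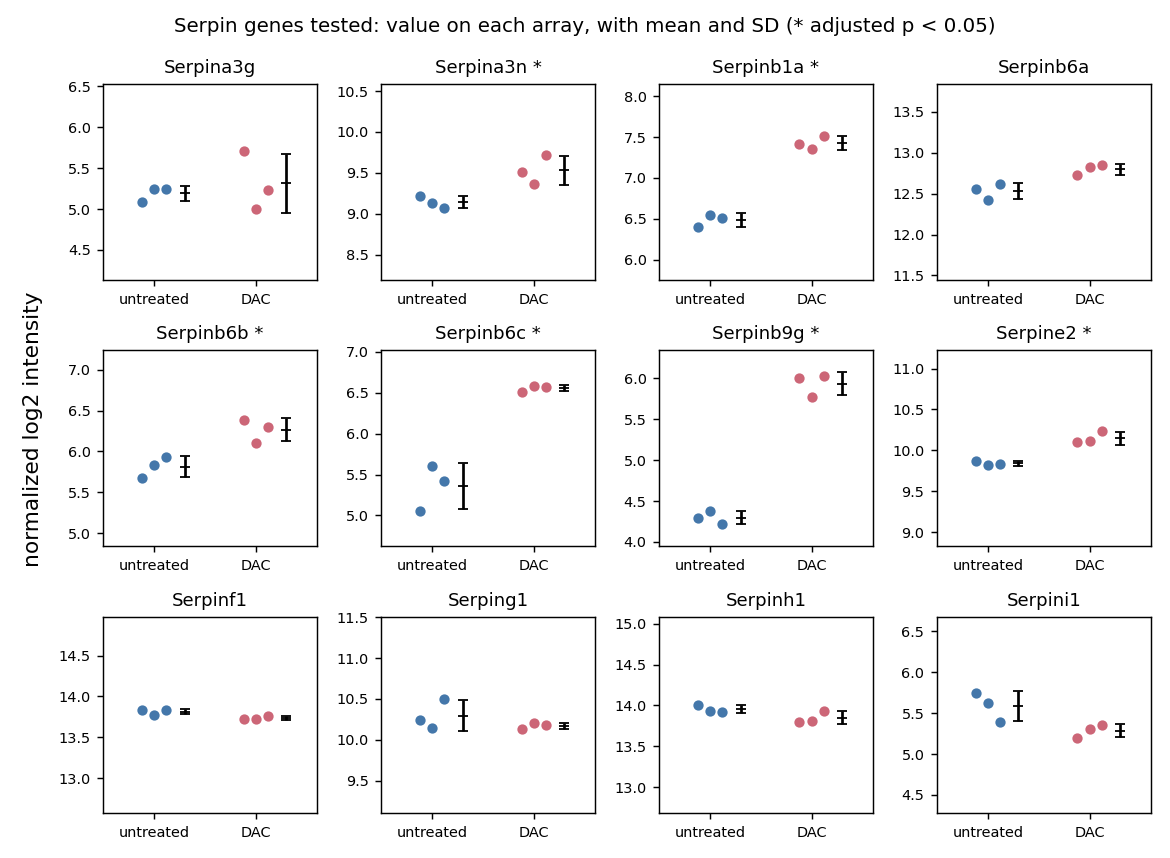
Normalized log2 intensity (vertical axes, each spanning the same range) of the 12 tested serpin genes on the 3 untreated and 3 DAC arrays, with the mean and SD of each group beside the points. Serpinb1a, Serpinb6c and Serpinb9g show the widest gaps, while Serpinf1, Serping1 and Serpinh1 stay close together.

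The members of clade B that rose were Serpinb9g, Serpinb6c, Serpinb1a and Serpinb6b. Serpinb9g belongs to a mouse expansion of Serpinb9, whose product inhibits the killer-cell protease granzyme B. Its raw intensity was 37.8, 39.2 and 31.8 on the untreated arrays, none of them detected, and 77.6, 74.7 and 83.9 on the DAC arrays, all with a detection p of 0. Every DAC array lay above every untreated array, by more than the standard errors of the bead means, which were 1.42 to 4.64. On the normalized log2 scale it went from 4.30 ± 0.08 to 5.94 ± 0.14 (SD, n = 3 per group), and at the background offset of 16 used here the gene was at least 2.00-fold higher with DAC. The bound sets the DAC mean against the lowest detected signal of each untreated array, and it moves with the offset. The fitted log2 change was 1.64 and, with an offset of 50, 0.83, the lowest of the 12 alternatives in which the gene was tested. Since the gene passed the filter only through its DAC arrays, its p is given from the fit without the filter, over all 28711 gene names (limma adjusted p = 0.000144). Of all 45281 probes, 69 (0.152%) were detected on all 3 DAC arrays and had a detection p over 0.05 on every untreated array. Among probes with a SERPIN target name, that of Serpinb9g was the only such probe. A probe of Serpinb1c under an older identifier, described below, met the same rule.

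Serpinb9f, another member of that expansion, did not pass the filter because it was detected on 2 arrays. It gave 33.1, 35.8 and 33.5 without DAC and 52.3, 46.3 and 62.6 with DAC. The DAC arrays were all brighter, but the second of them stayed below detection. Against the lowest detected signal it was at least 1.10-fold higher. In a fit over all 45281 probes without the filter its log2 change was 0.82 (limma adjusted p = 0.0421). In that fit 8 of the 80 serpin probes were higher and none lower, against 8.60% of all probes called and 4.20% higher. The remaining probes of the Serpinb9 group, those of Serpinb9, Serpinb9b, Serpinb9c, Serpinb9d and Serpinb9e, were detected on no array. Serpinb9 itself gave 31.7, 29.4 and 31.7 without DAC and 28.3, 30.4 and 27.5 with DAC.

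The 250 bases before the start sites of Serpinb9f and Serpinb9g are shown because both genes had low values without DAC and higher ones with it. Whether these bases were methylated was not tested. They were taken from RefSeq (build GRCm38.p6), 5′ to 3′ on the plus strand of chromosome 13, at chr13:33323827-33324076 and chr13:33484540-33484789, with CpG sites in capitals.
Serpinb9f: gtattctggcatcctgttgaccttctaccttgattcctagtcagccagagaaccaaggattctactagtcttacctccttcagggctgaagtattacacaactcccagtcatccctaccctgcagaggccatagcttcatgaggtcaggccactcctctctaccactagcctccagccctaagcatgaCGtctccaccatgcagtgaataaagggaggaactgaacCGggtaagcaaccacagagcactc
Serpinb9g: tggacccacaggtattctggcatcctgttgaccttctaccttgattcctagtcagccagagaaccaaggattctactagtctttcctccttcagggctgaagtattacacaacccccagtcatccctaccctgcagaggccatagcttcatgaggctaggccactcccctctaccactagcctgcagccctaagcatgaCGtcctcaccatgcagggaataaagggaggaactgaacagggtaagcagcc
Aligned to each other, 228 of 239 paired bases were the same (95.4%), with 22 gap positions. Serpinb9f had 2 CpG sites in this stretch and Serpinb9g had 1. With genes this alike, a probe of one may read the transcript of the other, and the probe sequences were not used here, so the copy that changed is uncertain.

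Serpinb6c and Serpinb6b are mouse paralogues of Serpinb6a, whose human counterpart inhibits cathepsin G. Serpinb6c stood at 5.05, 5.61 and 5.43 (log2 intensity) without DAC and at 6.51, 6.58 and 6.57 with it. The DAC arrays lay close together and well above the untreated ones, of which replicate 1 was the lowest. The gene was 2.28-fold higher, a log2 change of 1.19 ± 0.13 (SE; limma adjusted p = 5.50e-06). Serpinb6b went from 5.67, 5.83 and 5.93 to 6.38, 6.11 and 6.30, with no overlap, and was 1.37-fold higher (adjusted p = 0.00610). That call was lost when arrays were not normalized to each other (adjusted p = 0.0715; range over its alternatives 0.00193 to 0.0715). Both probes were dim, with raw intensities of 58.7 to 114.9 for Serpinb6c and 78.2 to 96.9 for Serpinb6b, and whether they also read transcripts of Serpinb6a was not tested.

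The upstream stretch of Serpinb6c, at chr13:33905192-33905441 on the minus strand, is shown for contrast with the pair above.
Serpinb6c: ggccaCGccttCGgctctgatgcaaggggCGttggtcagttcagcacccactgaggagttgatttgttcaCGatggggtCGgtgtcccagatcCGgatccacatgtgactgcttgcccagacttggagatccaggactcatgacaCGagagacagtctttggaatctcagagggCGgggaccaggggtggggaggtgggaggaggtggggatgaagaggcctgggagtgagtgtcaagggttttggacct
It held 8 CpG sites and aligned with that of Serpinb9g at 56.6% of paired bases.

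Serpinb6a itself did not pass the test. Its brighter probe read 12.56, 12.43 and 12.62 without DAC and 12.72, 12.83 and 12.85 with it. These groups did not overlap, the log2 change was 0.27 with a 95% interval of 0.05 to 0.48, and the adjusted p was 0.0574 (limma). Over the alternatives that p ran from 0.00204 to 0.201, and it fell below 0.05 in 7 of 16. The probe named SERPINB6, which RefSeq pairs with the same gene, was detected on 1 untreated array and on all 3 DAC arrays, too close to the detection limit for a size to be given.

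Serpinb1a is the mouse counterpart of the human leukocyte elastase inhibitor, which blocks elastase, proteinase 3 and cathepsin G of neutrophils. It read 6.40, 6.55 and 6.51 without DAC and 7.42, 7.35 and 7.51 with it. The groups lay far apart beside the SD within each (0.08 in both), with a fold of 1.92 (log2 change 0.94 ± 0.10, SE; limma adjusted p = 5.11e-06). Serpinb1a and Serpinb6c were called under all 16 alternatives run for them, and their log2 changes ran from 0.74 to 0.97 and from 0.76 to 1.31.

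A paralogue of Serpinb1a, Serpinb1c, gave an uneven picture. The probe under its serpin name was detected on no array, with raw intensities of 36.2, 35.9 and 37.9 without DAC and 33.9, 31.2 and 33.3 with DAC. Another probe of the array, which carries the gene's older identifier and so lies outside the 80, read 40.2, 35.6 and 34.1 against 55.8, 55.1 and 60.9. Its detection p was under 0.01 on the 3 DAC arrays alone, and at the offset of 16 it was at least 1.24-fold higher. It was looked at after its values were seen and passed the filter only through the DAC arrays, so no p is given. The probe of the third paralogue, Serpinb1b, was detected on no array. Of 10 probes that RefSeq pairs with serpin genes under other names, this was the 1 that passed the filter.

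**Figure D3:**
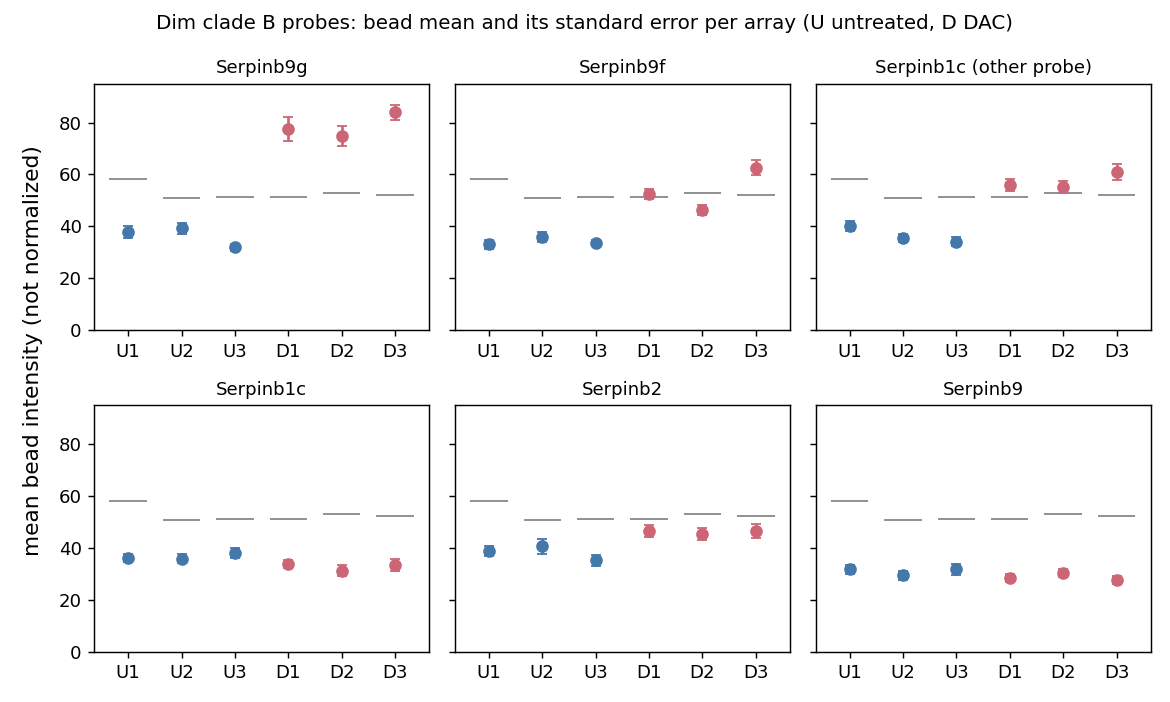
Raw mean bead intensity (vertical axis, not normalized) of 6 dim clade B probes on untreated arrays U1 to U3 and DAC arrays D1 to D3, with the standard error over beads. Grey ticks mark the lowest intensity detected on each array, and only Serpinb9g, Serpinb9f and the other probe of Serpinb1c have DAC points above them.

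Serpinb2 (an inhibitor of urokinase made by activated macrophages) stayed below the detection threshold throughout. It read 38.9, 40.6 and 35.2 without DAC and 46.5, 45.4 and 46.5 with DAC. All DAC values were higher, with detection p-values of 0.0363 to 0.0684 there, and no fold is given because both groups lay under the threshold. In the fit without the filter its adjusted p was 0.0182 (limma, over all probes). Serpinb8, which inhibits furin in vitro, showed the opposite order at the same low level. It read 56.5, 45.3 and 47.1 without DAC and 40.8, 40.5 and 43.2 with DAC, and its adjusted p in that fit was 0.148.

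The array named 13 clade B genes of chromosome 13, where they form a cluster, and 12 of chromosome 1. In the cluster on chromosome 13, 5 genes were tested and 4 of them rose, where 14.8% of all genes tested rose. One of them, Serpinb9g, was tested only through its DAC arrays. On chromosome 1 none of the 12 was tested. Of 9 other protein-coding genes beside the chromosome 13 cluster, taken by start position, 5 were tested, 1 rose and none fell. The gene that rose was Nqo2, a quinone reductase gene, with a log2 change of 0.64 (limma adjusted p = 0.000606). By start position it comes between Serpinb6a and Ripk1. Ripk1, its neighbour, had a log2 change of 0.23 (adjusted p = 0.131), and Foxc1, Gmds and Tubb2b did not pass the test either.

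Serpinb1a is known from leukocytes, and leukocyte markers were higher with DAC as well. Of 20 such markers on the array, 8 were tested, of which 6 rose and none fell. Among all genes tested, 14.8% rose and 14.6% fell. Cd53 and Csf1r, both among the 6, were detected on no untreated array and passed the filter only through the DAC arrays. The summed normalized intensity of the tested markers lay between 940.2 and 1002 without DAC and between 1501 and 1531 with DAC. That sum leans on its brightest members, the lysozyme genes Lyz1 and Lyz2. Their mean log2 intensities were 8.76 and 7.35 without DAC and 9.54 and 8.04 with it. Cd3e and Cd14 did not pass the test, with log2 changes of 0.33 and −0.09 (limma adjusted p = 0.120 and 0.511). The defining markers Ptprc, Itgam, Adgre1, Tyrobp and Fcer1g were detected on no array. The part of such cells in these results was not tested, and in bulk RNA more cells of a type and more RNA per cell cannot be told apart. Of 18 fibroblast markers, 16 were tested and only Postn was detected on no array. Among them S100a4 rose, while Lum, Col6a1, Fn1 and Dcn fell, by 0.74, 0.38, 0.33 and 0.28 on the log2 scale. The summed intensity of the tested fibroblast markers was 102576 to 106036 without DAC and 95028 to 101374 with it. The epithelial markers Epcam and Cdh1 were detected on no array, while Krt8, Krt18, Krt19, Krt7 and Krt14 and the mesothelial genes Msln and Upk3b were detected on all 6. Of the 7 epithelial markers tested, Krt7 and Krt14 rose and Krt19 fell, 2.30-fold lower with DAC. All 3 tested genes of the 11 endothelial and mesothelial markers fell, and these were the mesothelial Lrrn4, Upk3b and Msln. Their summed intensity was 9003 to 10121 without DAC and 4249 to 5549 with DAC. Most of that sum was Upk3b, with a mean log2 intensity of 13.12 without DAC and 12.14 with it. The endothelial Pecam1 and Cdh5 were detected on no array. Of 15 hepatocyte and acinar markers, 12 were detected on no array, Alb and Ttr among them. The 1 that was tested, the acinar protease gene Cela1, was higher with DAC (log2 change 0.51, limma adjusted p = 0.00184).

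**Figure D4:**
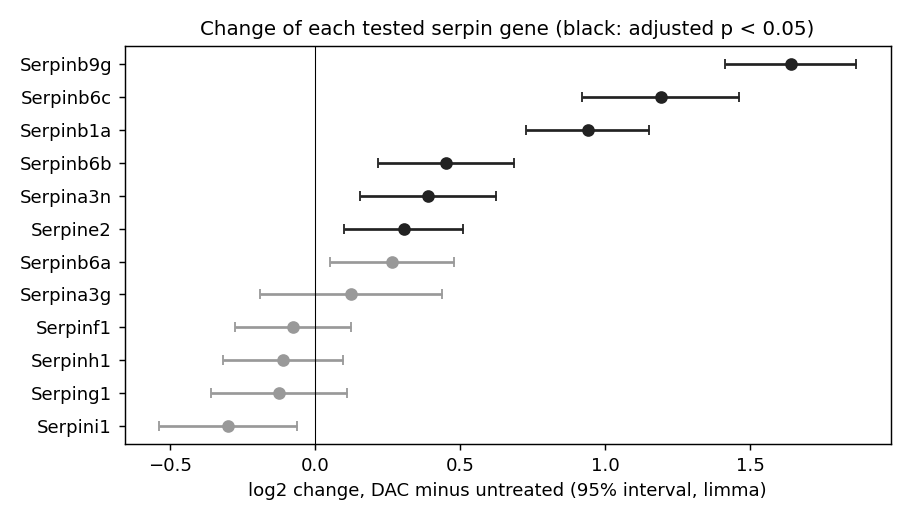
Log2 change of the 12 tested serpin genes, DAC minus untreated (horizontal axis), with the 95% interval of the limma fit. Black points passed an adjusted p under 0.05, from Serpine2 at 0.31 up to Serpinb9g at 1.64, and the grey points run from Serpini1 at −0.30 to Serpinb6a at 0.27.

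In clade A, 2 genes were measurable, and 1 rose. Serpina3n is a secreted mouse relative of antichymotrypsin that inhibits elastase and granzyme B. It read 9.22, 9.13 and 9.07 without DAC and 9.51, 9.36 and 9.71 with it. The groups did not overlap, DAC replicate 3 was the highest, and the fold was 1.31 (log2 change 0.39 ± 0.11, SE; limma adjusted p = 0.0150). Without DAC replicate 3 the call was lost (log2 change 0.29, adjusted p = 0.0831), as it was without untreated replicate 3 (adjusted p = 0.0517), without the filter (0.0520) and without between-array normalization (0.0831). Over all its alternatives the adjusted p ran from 0.00452 to 0.0831. Serpina3g, an intracellular member of the same cluster that inhibits cysteine cathepsins, read 5.08, 5.25 and 5.25 without DAC and 5.71, 5.00 and 5.23 with it. Its groups overlapped, and the 95% interval of its log2 change was −0.19 to 0.44 (adjusted p = 0.567). These genes belong to a family of near-identical copies whose transcripts a probe may share.

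The clade E gene Serpine2 (protease nexin-1) encodes a protein that is secreted by fibroblasts and blocks thrombin, urokinase and plasmin at the cell surface. Its brighter probe read 9.87, 9.82 and 9.83 without DAC and 10.10, 10.11 and 10.24 with it. The DAC values were all higher, with a fold of 1.24 (log2 change 0.31 ± 0.10, SE; limma adjusted p = 0.0259). Its second probe read 5.42, 5.26 and 5.16 against 5.34, 5.55 and 5.49, overlapped between the groups and gave a log2 change of 0.18 (adjusted p = 0.242 among all kept probes). The call on Serpine2 was lost under 6 of 16 alternatives, among them the mean of its probes (adjusted p = 0.0611), no between-array normalization (0.173), and leaving out DAC replicate 3 (0.100) or untreated replicate 1, 2 or 3 (0.0522, 0.0805 and 0.0610). The adjusted p ranged from 0.00675 to 0.173 in all.

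The partners of such inhibitors were taken as a list of plasminogen activation and clotting genes. Of 29 on the array, 13 were tested, 4 rose and 1 fell, with a median log2 change of 0.03. Among all genes tested, 14.8% rose and 14.6% fell. Plau (urokinase) had a log2 change of 1.40 (limma adjusted p = 9.93e-07), its receptor gene Plaur 0.57 (adjusted p = 0.000799) and Thbd (thrombomodulin, the thrombin receptor of the anticoagulant pathway) 0.86 (adjusted p = 6.18e-05). Lrp2, an endocytic receptor that takes up serpin-protease complexes, fell by 1.25 (adjusted p = 3.38e-07). Lrp1, another such receptor, went the other way, with a log2 change of 0.40 (adjusted p = 0.0317). Plat, the tissue plasminogen activator gene, had a log2 change of 0.18 (adjusted p = 0.219). The precursors Plg and F2 were detected on no array.

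Serpini1 (neuroserpin), an inhibitor of tissue plasminogen activator known from neurons, was the tested serpin with the lowest change. It read 5.75, 5.62 and 5.39 without DAC and 5.19, 5.31 and 5.36 with it. The groups did not overlap, but untreated replicate 3 lay just above the DAC arrays. The log2 change was −0.30 with a 95% interval of −0.54 to −0.06 and did not pass the threshold (limma adjusted p = 0.0557). It passed in 4 of 16 alternatives, over which the adjusted p ran from 0.0113 to 0.208.

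The remaining tested serpins, one each of clades F, G and H, did not pass the test, and each had a second kept probe that did not pass either. Serpinf1 (PEDF, a secreted anti-angiogenic factor that inhibits no protease) read 13.83, 13.78 and 13.83 without DAC and 13.72, 13.72 and 13.77 with it. Though these groups did not overlap, the log2 change was −0.08 with a 95% interval of −0.28 to 0.12 (limma adjusted p = 0.585). With 75th percentile scaling the sign turned, to 0.099. The raw intensities were 13259 to 14902, where the brightest probe of an array gave 17599 to 19114.

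Serpinh1 encodes HSP47, the collagen chaperone of the endoplasmic reticulum, which also inhibits no protease. Its brighter probe read 14.01, 13.94 and 13.92 without DAC and 13.79, 13.81 and 13.94 with it, so that DAC replicate 3 reached the untreated range. The 95% interval of its log2 change was −0.32 to 0.10 (adjusted p = 0.430, limma). Raw intensities of the brighter probe were 14054.5 to 16305.2, where the brightest probe of an array gave 17599 to 19114. The dimmer probe read 10.43, 10.58 and 10.36 without DAC and 10.11, 10.31 and 10.34 with it, without overlap. It gave a log2 change of −0.20 (limma adjusted p = 0.176 among all kept probes). A list set beside HSP47 had 28 genes on the array, for the folding, modification, processing and transport of collagen. Of these, 23 were tested, 4 rose and 1 fell, with a median log2 change of −0.04. Among all genes tested, 14.8% rose and 14.6% fell. The prolyl hydroxylase gene P4ha2 rose by 0.42, the retrieval receptor gene Kdelr3 by 0.37 and the isomerase gene Ppib by 0.31, while the lysyl hydroxylase gene Plod2 fell by 0.45 on the log2 scale (adjusted p = 0.00522, 0.0110, 0.0250 and 0.0115, limma).

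Serping1 encodes the C1 inhibitor, which blocks the C1r and C1s proteases of complement and plasma kallikrein. Its brighter probe read 10.24, 10.14 and 10.50 without DAC and 10.13, 10.21 and 10.18 with it, and its second probe 9.92 to 10.05 against 9.96 to 10.01. Both pairs of groups overlapped. The log2 changes were −0.12 (95% interval −0.36 to 0.11; limma adjusted p = 0.429) and 0.0015. Of 14 complement genes of the list, 8 were tested, 4 rose and 1 fell, with a median log2 change of 0.18. Among all genes tested, 14.8% rose and 14.6% fell. C1s1, a target of the C1 inhibitor, fell by 0.89 on the log2 scale (adjusted p = 2.89e-05). Masp1, a protease of the lectin pathway, rose by 0.48 (adjusted p = 0.00318), and the C1q chain genes C1qb and C1qc passed the test as higher (adjusted p = 0.00285 and 0.0206). They were detected on only 1 and 2 of the 3 untreated arrays, so no size is given for them. C1ra was detected on no array.

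A general list was set beside the clade B serpins, Serpina3g and Serpina3n. It held granule and lysosomal genes, most of them proteases, and also the caspase genes Casp1 and Casp8. Which products of the list these serpins inhibit was not tested. The list had 31 genes on the array, and 17 of them gave no detected value, including cathepsin G (Ctsg), proteinase 3 (Prtn3) and granzyme B (Gzmb). Of 14 tested, 4 rose and 1 fell, with a median log2 change of 0.01. Ctsh (cathepsin H) rose by 0.96, Casp1 (the inflammatory caspase) by 0.98 and Mpo (myeloperoxidase, a granule partner rather than a protease) by 0.93, while Ctsl (cathepsin L) fell by 0.46 on the log2 scale (adjusted p = 5.37e-06, 6.00e-06, 6.60e-05 and 0.00337, limma). Over the 58 tested genes of the 4 lists, 16 rose and 4 fell, where 14.8% of all genes tested rose and 14.6% fell. Without between-array normalization 11 of the 58 rose and 8 fell, where 977 of all 11518 genes rose and 2711 fell.

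The promoters of the family were poor in CpG sites. RefSeq windows of 300 bases, from 250 before to 50 after a start site, were found for 47 of the 58 genes, 55 windows in all. Their median was 3 CpG sites, against 7 over all 32851 windows of the table. Fewer than 10 sites were held by 49 of the 55 and by 56.5% of all windows. Windows of all genes tested had a median of 20, but 44 of the 55 serpin windows were of genes not tested. For tested serpins the median was 4 where the gene rose and 10 where it did not pass the test. The 5 windows of serpins that rose had 3 (Serpina3n), 4 (Serpinb6b), 10 (Serpinb6c), 3 (Serpinb9g) and 41 (Serpine2) sites, and Serpinb1a had no window. Among tested serpins that did not pass the test the counts ran from 3 (Serpinf1) to 25 at one of the start sites of Serpinb6a. The letters TATAAA, searched on both strands, occurred in 18 of the 55 windows (32.7%) and in 13.6% of all windows. Windows of paralogues share sequence, so these shares are a description of the family.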

How the data were processed

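Per the label protocol, biotin-labelled cRNA was hybridised to Illumina arrays. Per the file headers, the deposited table held mean bead intensity per probe, its standard error in the same signal units, a detection p-value and the count of beads (19 to 74 for serpin probes). The intensities were neither background-subtracted nor normalized, as judged from their values. Scanner software is not given in the sources used here. A second table of processed values shared no probe identifier and was not used. The files held 0 unused columns of per-sample values in the table analysed.

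Background was corrected by normexp from the detection p-values with an offset of 16, followed by quantile normalization and log2 (limma 3.58.1, R 4.3.3). Arrays of one group correlated at 0.994 to 0.996, arrays of different groups at 0.976 to 0.980, and the number of arrays limits the precision. The comparison used lmFit and eBayes, two-sided, with adjustment over all 11518 genes or, for single probes, over all 16883 kept probes. The pipeline was tested on simulated intensities. Names came from RefSeq (GRCm38.p6), by symbol for 58 serpin targets and by synonym for 1. All serpin genes with a kept probe are named, and up to 4 called genes of each partner list with the smallest p. The members and lists were chosen with earlier results of these data known. A serpin gene is not reported here.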

Additional observations from a re-analysis of the deposited data

How the results depend on the processing

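Each result was recomputed under 16 alternatives (fewer where a gene did not pass the filter). Serpinb1a and Serpinb6c kept their direction and call under all 16, and Serping1 stayed uncalled. Serpinb9g kept its direction and call in the 12 alternatives where it was tested. It passed the filter only through its DAC arrays. It was therefore not tested where detection on all 6 arrays was required or a DAC array was left out. Without between-array normalization 3 serpins were higher and 1 lower, 977 of all genes were higher and 2711 lower, and of the partner genes 11 were higher and 8 lower. Whether replicate numbers pair the plates was not settled. Same-numbered deviations correlated at 0.32, 0.28 and −0.03, and those with unlike numbers at −0.40 to 0.16. With the replicate number as a block, or with array weights, 1 serpin (Serpini1) and 7 partner genes were lower, and Serpinb6a passed the test (adjusted p = 0.0442 and 0.0301, limma), which made 7 serpins higher. No other serpin call changed under these settings. The count of higher serpins was also 7, with Serpinb6a among them, under 75th percentile scaling, no background correction, an offset of 50, and trended and robust variance. Without the filter it was 7 as well, but of a different set. Serpina3n and Serpinb6a were not called there (adjusted p = 0.0520 and 0.0531, limma), and serpins below the filter were counted. Leaving out 1 array at a time gave 3 to 5 serpins higher and 0 to 1 lower, and 4 to 7 partner genes lower, with 7 reached without DAC replicate 2. The lone lower serpin came without untreated replicate 3, and the 3 higher without DAC replicate 3. The sign of Serpina3g turned without between-array normalization (−0.0042) and without DAC replicate 1 (−0.076, the lowest of −0.076 to 0.28), that of Serpinf1 with 75th percentile scaling (0.099), and that of Serpinh1 with the same scaling (0.080). None of these had passed the test. At a detection p under 0.001, 7 serpins were detected in untreated cells. The cause of these shifts was not tested. Signal over background limits what can be said of the 46 serpin genes that were not tested.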
